A study of Mus musculus with 40 samples.

Results

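*Dio1*, *Dio2*, *Dio3*, *Thra*, *Thrb* and *Slc16a10*, which carry thyroid hormone activation, breakdown, sensing and transport, were followed in brown adipose tissue (BAT) of 40 mice. They were taken by gene symbol from the deposited count table, and all 6 were among its 20295 genes. Of these, *Dio2*, *Thra*, *Thrb* and *Slc16a10* had enough counts to be tested, as did 13277 genes in all. *Dio1* and *Dio3* did not exceed 3 counts in any mouse.

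Thyroid hormone is released mainly as the prohormone thyroxine, and deiodinases remove iodine from it inside cells. Type 2 deiodinase, encoded by *Dio2*, makes the active hormone triiodothyronine, and in BAT it is known as a target of adrenergic signalling through cAMP that raises local hormone during thermogenesis. Type 1 deiodinase (*Dio1*) is an enzyme of liver, kidney and thyroid, and type 3 deiodinase (*Dio3*) inactivates the hormone. Triiodothyronine binds the nuclear receptors TRα (*Thra*) and TRβ (*Thrb*), which sit on DNA with retinoid X receptors and exchange corepressors for coactivators. *Slc16a10* encodes MCT10, a transporter of aromatic amino acids and thyroid hormone.

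All 3 deiodinases are selenoproteins. Their messages carry a TGA codon inside the reading frame that is read as selenocysteine, the residue at the catalytic centre, in place of a stop. The coding sequence around this codon is shown because it is what ties these genes to the selenoprotein synthesis genes described further on. Each run was read from the annotated mouse transcript of build NCBIM37 and spans 15 codons, with the TGA in capitals. It is codon 126 in *Dio1*, 130 in *Dio2* and 144 in *Dio3* (transcript Dio3-201). The *Dio2* frame holds another in-frame TGA at codon 263 of 266.
Dio1: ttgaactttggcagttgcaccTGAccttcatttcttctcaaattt
Dio2: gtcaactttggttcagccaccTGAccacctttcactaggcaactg
Dio3: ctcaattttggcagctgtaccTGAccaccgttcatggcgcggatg

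The *Dio2* promoter is shown because *Dio2* moved most of the 6 genes. It was read from RefSeq on GRCm38.p6 at chr12:90739039-90739288, minus strand, and covers the 250 bases before the start site. Capitals mark the letters TGACGTCA, the palindromic cAMP response element.
Dio2 promoter: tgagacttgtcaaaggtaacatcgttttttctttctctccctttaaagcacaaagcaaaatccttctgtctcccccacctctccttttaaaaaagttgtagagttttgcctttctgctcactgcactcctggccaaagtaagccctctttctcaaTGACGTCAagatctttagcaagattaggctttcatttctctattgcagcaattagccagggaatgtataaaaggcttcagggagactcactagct
This motif begins 95 bases before the start site, and 1.79% of the 32851 promoters in the same table hold it on either strand, in windows of 300 bases that include 50 bases after the start. The windows of *Dio1*, *Dio3*, *Slc16a10* and the 2 listed promoters of *Thrb* did not hold it. The shorter TGACG stood in 20.8% of all promoters, in that of *Dio2* (inside the element above) and in 1 of *Thrb*. The receptor motif AGGTCA was present in 16.3% of all promoters and in the same *Thrb* promoter. Its direct repeat with 4 bases between the copies was in 0.0152% of promoters and in none of the windows of *Dio1*, *Dio2*, *Dio3*, *Slc16a10* and *Thrb*. *Thra* was not searched. A match of letters is a description of the window and does not show binding.

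The mice formed 8 groups of 5, all male and housed at 29 °C. The first cohort, 13 to 19 weeks old, held C-3BO mice, in which *Ucp1*-Cre removes a stop cassette ahead of a CAG-driven *Gpr3* at ROSA26 so that brown and beige adipocytes overexpress this constitutively active receptor, and control littermates that carried the transgene without Cre or Cre without the transgene. They ate chow or a high-fat diet (HFD, 60 kcal% fat) for 7 days. The second cohort, 15 weeks old, held mice labelled wildtype, the control littermates of another *Gpr3* line, injected daily for 9 days with the β3-adrenergic agonist that the labels call CL, at 1 mg/kg or with saline at 10 µL/g. On HFD the injections began 2 days before the diet was changed, and tissue was taken the day after the last injection.

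Library totals ran from 849126 to 15260516 counts. Levels are given in CPM, counts scaled to a common library size after TMM adjustment, and 3 counts came to between 0.206 and 3.01 CPM. *Gpr3* lay between 266 and 918 CPM in C-3BO mice and did not exceed 9.15 CPM in the other mice, a value seen in chow CL replicate 3. All 6 brown adipocyte markers were detected in every group, with *Ucp1* at 1120 to 15800 CPM. The 12 libraries with the lowest totals, all HFD saline, all HFD CL and HFD C-3BO replicates 4 and 5, held the liver transcript *Alb* at 62.1 to 294 CPM and counts of the epididymal *Lcn8*. In the other 28 libraries *Alb* did not exceed 1.62 CPM and *Lcn8* had no counts. In injected mice, the diet comparison therefore cannot be told apart from this difference between libraries.

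The test was edgeR's quasi-likelihood test, and a gene was called changed at a Benjamini-Hochberg adjusted p under 0.05 over all 13277 tested genes. The study's threshold of a log2 fold change beyond 1 is given where a changed gene passed it.

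*Dio2* (NM_010050, minus strand of mm9 chromosome 12, 91962992 to 91976878) had its highest group mean in HFD C-3BO mice and its lowest 4 where neither CL nor *Gpr3* was given. In the 5 chow control mice its levels were 10.2, 21.3, 27.3, 26.5 and 31.4 CPM. In chow C-3BO mice they were 18.4, 70.4, 80.0, 77.4 and 96.7 CPM. So 4 of 5 C-3BO mice lay above every control mouse, while replicate 1 lay among the controls. In HFD control mice the values were 22.6, 26.7, 16.9, 54.2 and 27.4 CPM. HFD C-3BO mice had 181, 111, 197, 254 and 189 CPM. On HFD the C-3BO and control mice did not overlap, as was true of 20.8% of all tested genes in this comparison.

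The injected cohort started from similar levels, apart from 1 mouse. Chow saline mice had 85.4, 18.4, 19.4, 9.03 and 15.1 CPM. The first of these exceeded all but 1 of the chow CL mice, which had 40.1, 24.5, 60.8, 91.8 and 27.8 CPM. HFD saline mice had 26.4, 40, 13.7, 10.0 and 19.2 CPM. Replicate 4 of them rested on 10 counts in the shallowest library. HFD CL mice had 126, 143, 100, 87.1 and 84.1 CPM, each above every HFD saline mouse, a separation that 16.4% of all tested genes showed in one direction or the other.

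**Figure D1:**
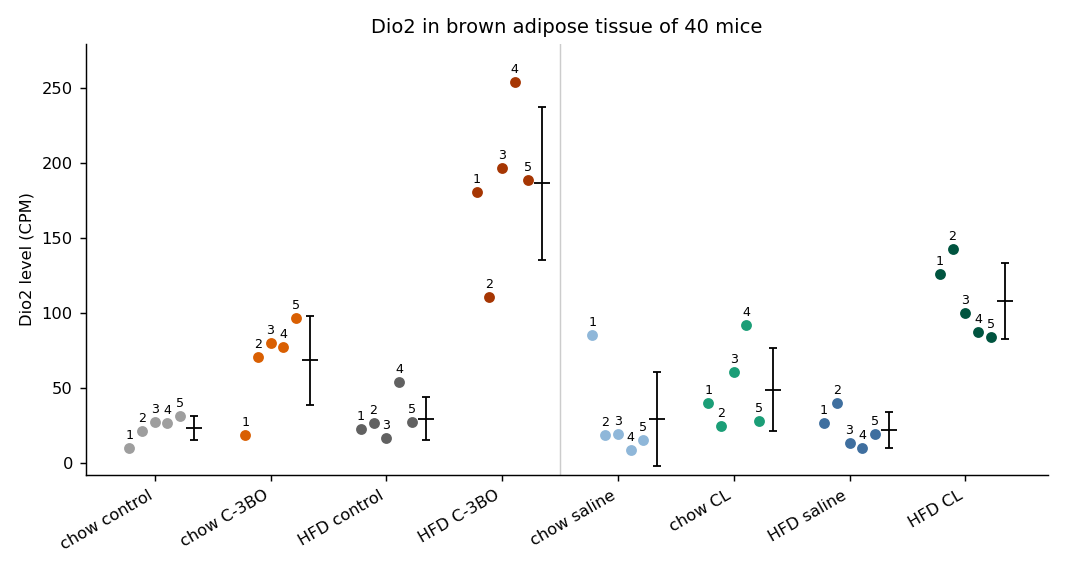
*Dio2* level in CPM (vertical axis, linear) in each of 40 mice by group, with replicate numbers beside the points and the mean ± SD as a black bar. HFD C-3BO mice sit at 111 to 254 CPM and HFD CL mice at 84.1 to 143 CPM, and replicate 1 of chow saline stands at 85.4 CPM above the other 4 at 9.03 to 19.4 CPM.

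Ordered by group mean, *Dio2* fell from 186 ± 50.9 CPM (SD, n = 5) in HFD C-3BO to 108 ± 25.3 in HFD CL, 68.6 ± 29.7 in chow C-3BO and 49.0 ± 27.8 in chow CL. The 4 groups without CL or *Gpr3* followed at 29.6 ± 14.4 in HFD control, 29.5 ± 31.5 in chow saline, 23.3 ± 8.19 in chow control and 21.9 ± 11.9 in HFD saline mice. The ranges of all neighbours in this order overlapped. Only the step from HFD C-3BO to HFD CL and that from HFD CL to chow C-3BO were larger than the larger SD of the pair.

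The comparison of C-3BO with control mice asks what *Gpr3* overexpression in thermogenic adipocytes does to BAT. On chow, *Dio2* rose by a log2 fold change of 1.57 (standard error, SE, 0.44, with an edgeR adjusted p = 0.00623), or 2.96-fold. It was the only changed gene of the 4 tested, in a comparison that called 31.6% of all tested genes. On HFD it rose by 2.65 (SE 0.45, edgeR adjusted p = 1.37e-05), or 6.29-fold, where 34.8% of genes were called and 2 of the 4 members changed. Both rises passed the study's threshold. The log2 fold change ranged from 1.36 to 1.81 on chow and from 2.46 to 3.00 on HFD over the alternative settings, and stayed under the threshold for p in each of them. Without HFD C-3BO replicates 4 and 5, whose libraries hold liver transcripts, *Dio2* was still called on HFD (2.46).

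The comparison of CL with saline asks the same of a β3-adrenergic agonist. On chow none of the 4 members was called by edgeR, against 15.3% of all tested genes. None passed an unadjusted p of 0.05 and none was called by DESeq2. *Dio2* had a log2 fold change of 0.75 (SE 0.43, edgeR adjusted p = 0.256). This value rested on chow saline replicate 1: without it the log2 fold change was 1.66 (SE 0.40, edgeR adjusted p = 0.00479), and leaving out any other single mouse did not bring a call. That mouse was singled out by its own *Dio2* level, so the p without it is a description. On HFD *Dio2* rose by 2.22 (SE 0.47, edgeR adjusted p = 0.000565), or 4.64-fold, past the study's threshold, and was the only member among the 23.5% of genes called. The range over all alternatives was 2.05 to 2.52.

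The diet comparisons gave less even values. In C-3BO mice *Dio2* was higher on HFD by a log2 fold change of 1.44 (SE 0.43, edgeR adjusted p = 0.0115), with all 5 HFD mice above all 5 chow mice, where 16.0% of all tested genes did not overlap. Here 25.7% of genes were called, among them 3 of the 4 members. Without HFD C-3BO replicates 4 and 5 the value was 1.25 (edgeR adjusted p = 0.0703). In CL mice it was higher on HFD by 1.13 (SE 0.43), with an edgeR adjusted p = 0.04998 that lies at the threshold. That call was kept in 5 of 17 alternatives, and it ended when any 1 of the 5 HFD CL mice or of chow CL replicates 1, 2, 3 and 5 was left out, with values of 0.97 to 1.23. It also cannot be told apart from the liver transcripts in the HFD libraries. This comparison called 23.6% of genes and 2 of the 4 members. *Dio2* had a log2 fold change of 0.35 in control mice (SE 0.44, edgeR adjusted p = 0.585) and of -0.33 in saline mice (SE 0.46, edgeR adjusted p = 0.682), without a call. The share of genes called was 32.9% in control mice, with 2 of the 4 members, and 15.5% in saline mice, with 1.

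An exact two-sided permutation test over the 252 regroupings of 5 and 5 mice was run for *Dio2* in each of the 8 comparisons, on log2 CPM, with adjustment over these 8. It gave p = 0.00794, the smallest possible, for CL on HFD, C-3BO on HFD and HFD in C-3BO mice (adjusted p = 0.0212 each, exact permutation). For C-3BO on chow the exact permutation p was 0.0397, which did not hold after adjustment (0.0635). For HFD in CL mice the exact permutation p was 0.0238 (adjusted 0.0476). CL on chow, HFD in control mice and HFD in saline mice had exact permutation p of 0.143, 0.444 and 0.921.

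**Figure D2:**
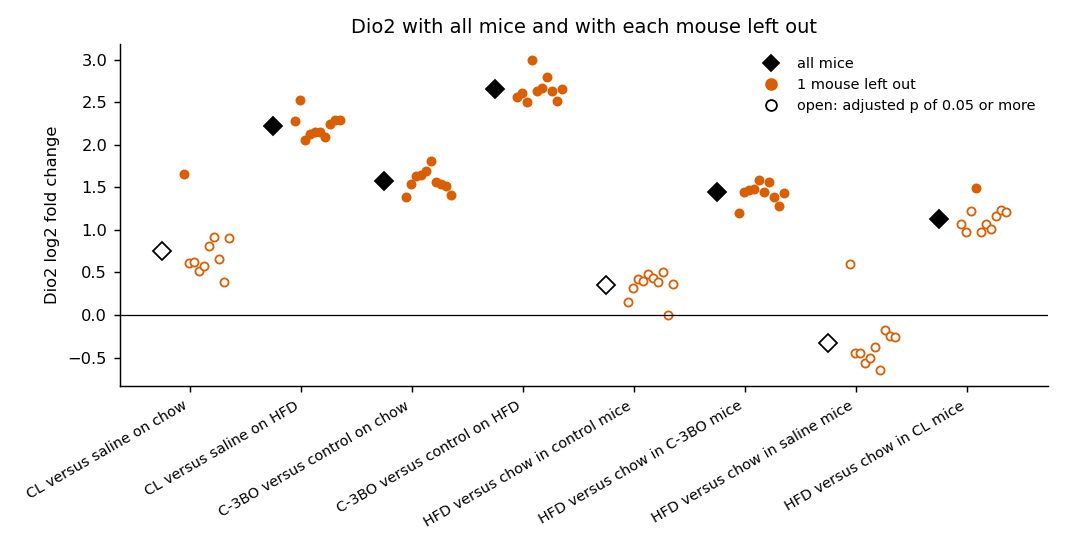
*Dio2* log2 fold change (vertical axis) in 8 comparisons, with all mice as diamonds and with each mouse of the compared groups left out in turn as circles, and with open symbols where the edgeR adjusted p was 0.05 or more. For CL on chow 1 circle stands apart at 1.66, and for HFD against chow in saline mice the same omitted mouse turns -0.33 into 0.60.

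Whether the effects themselves differ between diets or treatments was tested with interaction terms. *Dio2* had a C-3BO effect on HFD that exceeded that on chow by 1.09 (SE 0.61, edgeR adjusted p = 0.408). Its CL effect on HFD exceeded that on chow by 1.47 (SE 0.63, edgeR adjusted p = 0.463). The difference between C-3BO and CL effects was 0.82 on chow (SE 0.61, edgeR adjusted p = 0.483) and 0.44 on HFD (SE 0.62, edgeR adjusted p = 0.84). The unadjusted 95% intervals of these 4 values, taken from the SE by the normal approximation, ran from -0.11 to 2.28, 0.23 to 2.70, -0.39 to 2.02 and -0.78 to 1.66. Chow saline replicate 1 entered 2 of them: without it the CL term was 0.56 and the difference between C-3BO and CL effects on chow was -0.08. Of the 4 members none was called by edgeR or by DESeq2 in any of these 4 terms, which called 2.08%, 0.0151%, 6.24% and 1.80% of all tested genes in the order given. At an unadjusted p of 0.05, *Thra* passed in the first and *Dio2* and *Slc16a10* in the CL term.

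*Dio2* within a group followed some mice with high or low *Ucp1*, the uncoupling protein of BAT, but not others. HFD control replicate 4, with *Dio2* at 54.2 CPM, also had the group's highest *Ucp1* at 9440 CPM, against a group mean of 4900 CPM. Chow saline replicate 1 had *Ucp1* at 1860 CPM, near its group mean of 1670 ± 232 CPM (SD, n = 5). Chow C-3BO replicate 1, low in *Dio2* at 18.4 CPM, had *Ucp1* at 5790 CPM and *Gpr3* at 445 CPM, within the ranges of its group. Chow CL replicate 5 was low in both, with the group's lowest *Ucp1* at 1640 CPM and *Dio2* at 27.8 CPM, in a group that ranged from 24.5 to 91.8 CPM. Over all 40 libraries Pearson's r between log2 CPM of *Dio2* and *Ucp1* was 0.79, and after subtraction of group means it was 0.34. These points share library depth and, in the first case, the group differences.

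**Figure D3:**
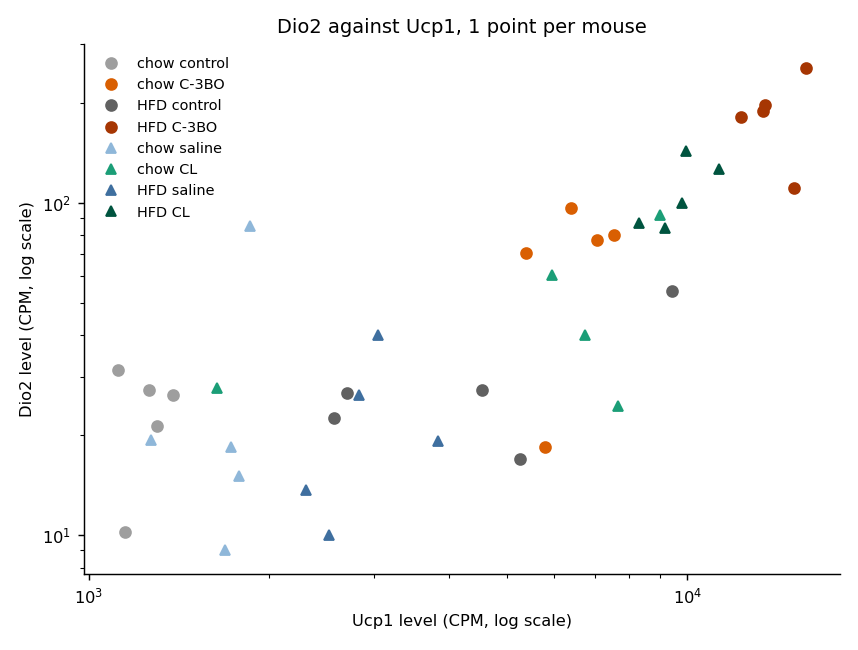
*Dio2* against *Ucp1* in CPM (log scale on each axis), 1 point per mouse, circles for the C-3BO cohort and triangles for the injected cohort. Chow saline replicate 1 lies at 1860 CPM of *Ucp1* and 85.4 CPM of *Dio2*, above the other saline mice, and chow C-3BO replicate 1 at 5790 and 18.4 CPM, below the other C-3BO mice.

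The genes whose log2 CPM deviated from their group means most like *Dio2* over the 40 libraries were *Ccrn4l*, which encodes nocturnin (r = 0.716), *Leo1*, a subunit of the PAF1 complex (r = 0.71), *Tatdn2* (r = 0.684), *Skil*, which encodes the corepressor SnoN (r = 0.68), and *Slc25a25*, a mitochondrial carrier of ATP-Mg and phosphate (r = 0.659). Without chow saline replicate 1, a choice made after the values were seen, these became 0.603, 0.679, 0.695, 0.519 and 0.497 over 39 libraries. Group differences included, the closest genes to *Dio2* were *Ccrn4l* (r = 0.901), *Hspa4* (r = 0.887), *Slc35a1* (r = 0.882), *Trp53inp2* (r = 0.881) and *G3bp2* (r = 0.872). Libraries also share depth and composition, so these are descriptions.

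*Dio1* (NM_007860, minus strand of mm9 chromosome 4, 106964070 to 106979748) had no counts in 31 of 40 mice and 14 counts in all. Its highest values were 3 counts in HFD CL replicate 3 (0.872 CPM) and in HFD C-3BO replicate 4 (0.611 CPM). Of the 14 counts, 10 lay in the 12 libraries with liver transcripts. There the 12 liver markers summed to 92.2 to 440 CPM, against at most 6.40 CPM in the other 28 libraries. The 4 kidney markers summed to at most 0.504 CPM in any mouse and the 3 thyroid markers to at most 1.07 CPM. Whether liver RNA gave the *Dio1* counts was not tested. *Dio3* (NM_172119, plus strand of mm9 chromosome 12, 111517440 to 111519307) had no counts in 28 mice and 21 counts in all, 6 of them in those 12 libraries. It too reached at most 3 counts, in HFD control replicate 2, HFD C-3BO replicate 5 and chow CL replicate 2. For neither gene could a difference between groups be detected at this depth.

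*Thra* (NM_178060, plus strand of mm9 chromosome 11, 98603187 to 98626425) changed with diet in the C-3BO cohort. Chow control mice had 120, 128, 74.8, 124 and 123 CPM, and HFD control mice had 208, 195, 182, 193 and 206 CPM. Every HFD control mouse lay above every chow control mouse, and 18.9% of all tested genes did not overlap between these groups. Chow C-3BO mice had 120, 130, 112, 140 and 132 CPM and HFD C-3BO mice 179, 178, 159, 128 and 150 CPM, so these groups overlapped only through replicate 4 on HFD. In the injected cohort the 4 groups covered each other, with means of 145 ± 30.3 (chow saline), 150 ± 24 (chow CL), 160 ± 5.31 (HFD saline) and 148 ± 16.1 CPM (HFD CL, SD, n = 5 each).

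In control mice *Thra* rose on HFD by a log2 fold change of 0.79 (SE 0.12, edgeR adjusted p = 4.14e-06), short of the study's fold threshold, and this held in all 17 alternatives (0.67 to 0.95). In C-3BO mice it rose by 0.33 (SE 0.12, edgeR adjusted p = 0.0445), a call kept in 8 of 18 alternatives. It ended when any 1 of chow C-3BO replicates 1, 2, 3 and 5 or HFD C-3BO replicates 1, 2, 3 and 5 was left out, with values of 0.26 to 0.35. Within HFD mice it was lower in C-3BO than in control mice by a log2 fold change of -0.31 (SE 0.12, edgeR adjusted p = 0.0459), and the groups did not overlap (20.8% of all tested genes). This call was lost without HFD C-3BO replicates 4 and 5 (-0.19, edgeR adjusted p = 0.323), the mice lowest in *Thra*. It also ended when any 1 of HFD control replicates 1, 2, 4 and 5 or HFD C-3BO replicates 3, 4 and 5 was left out, at -0.32 to -0.24, and was kept in 10 of 18 alternatives. The diet difference of the C-3BO effect on *Thra* was -0.46 (SE 0.17, edgeR adjusted p = 0.16). In the other 5 comparisons its log2 fold change lay between -0.11 and 0.16 without a call. The span of *Thra* overlapped no other gene of the table, and *Nr1d1* on the opposite strand ended 2820 bases away.

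*Thrb* (NM_001113417, plus strand of mm9 chromosome 14, 18493474 to 18870602) was lower on HFD in all 4 diet comparisons. Its chow control values were 74.6, 91.2, 74.5, 76.5 and 87.2 CPM, against 70.3, 69.3, 69.8, 66.2 and 51.7 CPM in HFD control mice. Chow C-3BO mice had 77.3, 74.0, 75.9, 84.3 and 76.2 CPM, and HFD C-3BO mice had 68.7, 61.6, 64.8, 67.8 and 51.6 CPM. In each pair all 5 HFD mice were below all 5 chow mice, by a small margin, while 18.9% of all tested genes in control mice and 16.0% in C-3BO mice did not overlap. In the injected cohort chow saline mice had 137, 84.9, 93.6, 129 and 98.0 CPM and HFD saline mice 62.4, 60, 58.2, 48.1 and 72.2 CPM. Chow CL mice had 101, 105, 92.7, 104 and 87.7 CPM, and HFD CL mice 59.7, 67.5, 64.6, 67.0 and 75.4 CPM. Neither pair overlapped, nor did 9.03% of all tested genes in saline and 18.2% in CL mice.

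*Thrb* fell by 0.30 on the log2 scale in control mice (edgeR adjusted p = 0.0284) and by 0.30 in C-3BO mice (edgeR adjusted p = 0.0397), with a standard error of 0.11 in both. It fell by 0.83 in saline mice (SE 0.11, edgeR adjusted p = 4.38e-06) and by 0.55 in CL mice (SE 0.11, edgeR adjusted p = 0.0003). In the injected mice these falls cannot be told apart from the liver transcripts in the HFD libraries. None of the 4 passed the study's fold threshold. When TMM factors were left out, the values in control and C-3BO mice became -0.14 and -0.12 and were no longer called, while those in saline and CL mice held in all 17 alternatives. The call in control mice also ended without chow control replicate 2 or 5 or HFD control replicate 5 (-0.27 to -0.24), and that in C-3BO mice without chow C-3BO replicate 1, 4 or 5 or HFD C-3BO replicate 2 or 5 (-0.31 to -0.24). The call in C-3BO mice was also lost without HFD C-3BO replicates 4 and 5, whose libraries hold liver transcripts (-0.25, edgeR adjusted p = 0.167). Neither C-3BO nor CL brought a call for *Thrb*, with log2 fold changes between -0.15 and 0.13.

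**Figure D4:**
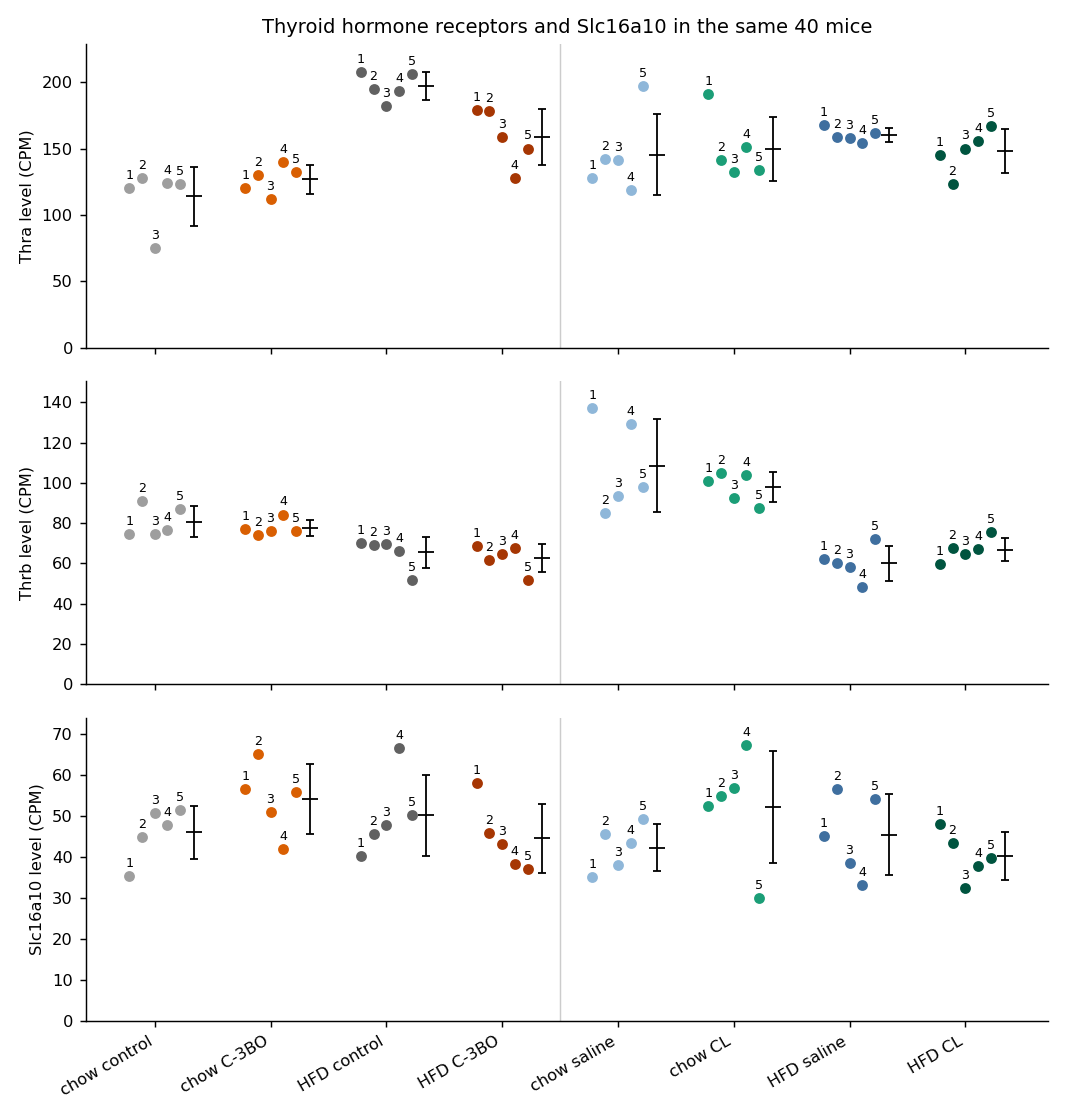
*Thra*, *Thrb* and *Slc16a10* levels in CPM (vertical axes, linear from 0) in each mouse by group, with replicate numbers and the mean ± SD as a black bar. The 5 HFD control mice sit at 182 to 208 CPM of *Thra*, above the chow control mice at 74.8 to 128 CPM, and *Thrb* on HFD lies at or below 75.4 CPM in all 20 mice.

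Per kilobase of counted exon, the *Thra* level exceeded that of *Thrb* in every mouse. The ratio of these levels was 3.76 ± 0.665 in chow control and 8.15 ± 1.44 in HFD control mice (SD, n = 5 each), whose ranges of 2.68 to 4.32 and 6.95 to 10.6 did not overlap. In chow and HFD C-3BO mice it was 4.36 ± 0.322 and 6.80 ± 1.11, in chow and HFD saline mice 3.76 ± 1.26 and 7.22 ± 0.914, and in chow and HFD CL mice 4.07 ± 0.560 and 5.94 ± 0.630. *Thra* was counted under the listed entry NM_178060. The splice form that binds hormone and the form that does not were not told apart, and how far this entry covers each was not examined. Median levels over the 40 mice were 65.7 CPM per kilobase for *Thra*, 12.4 for *Thrb*, 8.47 for *Slc16a10* and 6.14 for *Dio2*.

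In the comparisons that called a receptor, some cell type markers moved and others overlapped. The 8 skeletal muscle markers summed to 656 to 8240 CPM in chow control and 4.75 to 187 CPM in HFD control mice, and the 4 endothelial markers to 669 to 1020 and 1340 to 1740 CPM. In chow and HFD C-3BO mice the muscle sums were 339 to 3270 and 4.53 to 63.5 CPM, and the endothelial sums 438 to 867 and 1110 to 1270 CPM. On HFD, where *Thra* was lower in C-3BO than in control mice, the endothelial ranges of these groups did not overlap either. The 6 brown adipocyte markers summed to 18600 to 21800 CPM in HFD C-3BO mice. That lay above chow C-3BO mice (11100 to 14800 CPM) and HFD control mice (6880 to 15500 CPM). Chow control mice (6020 to 8020 CPM) overlapped HFD control mice in this sum. *Ucp1*, 1 of the 6, made up much of it. Alone it reached 12300 to 15800 CPM in HFD C-3BO, 5380 to 7540 CPM in chow C-3BO and 2570 to 9440 CPM in HFD control mice. The sum without *Ucp1* was not taken, so a higher sum does not show more brown adipocytes. All of the muscle, endothelial and brown adipocyte markers were detected in each of the 4 groups. In saline mice 4 macrophage markers summed to 43.8 to 82.7 CPM on chow and 107 to 241 CPM on HFD, and the endothelial markers to 754 to 958 and 1070 to 1160 CPM. In CL mice the endothelial sums were 744 to 974 CPM on chow and 1200 to 1630 CPM on HFD. In saline and CL mice the muscle and brown adipocyte sums overlapped between diets. Macrophage sums overlapped between diets in control, C-3BO and CL mice. Between C-3BO and control mice on HFD, macrophage and muscle sums overlapped as well. The part of these markers in the receptor values was not tested. In whole tissue, fewer cells of a type and less RNA per cell cannot be told apart.

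*Slc16a10* (NM_001114332, minus strand of mm9 chromosome 10, 39753341 to 39862060) was called in none of the 8 comparisons, by edgeR or by DESeq2, and passed an unadjusted p of 0.05 in 1, HFD against chow in CL mice. Its group means lay between 40.2 ± 5.90 CPM in HFD CL and 54.1 ± 8.45 CPM in chow C-3BO mice (SD, n = 5 each), and each neighbouring pair in this order overlapped. The log2 fold changes lay between -0.37 and 0.31. Chow CL mice had 52.4, 54.7, 56.7, 67.2 and 30 CPM, of which replicate 5 lay below and the other 4 above all chow saline mice (35.0, 45.6, 37.9, 43.4 and 49.1 CPM). Without replicate 5 CL on chow gave a log2 fold change of 0.45 (edgeR adjusted p = 0.0301), and HFD against chow in CL mice gave -0.52 (edgeR adjusted p = 0.0125). In each comparison this was the only call among 17 alternatives. The mouse is named here after its value was seen, so these 2 values are descriptions. HFD control mice had 40.2, 45.5, 47.8, 66.6 and 50.3 CPM, and the highest was again replicate 4.

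**Figure D5:**
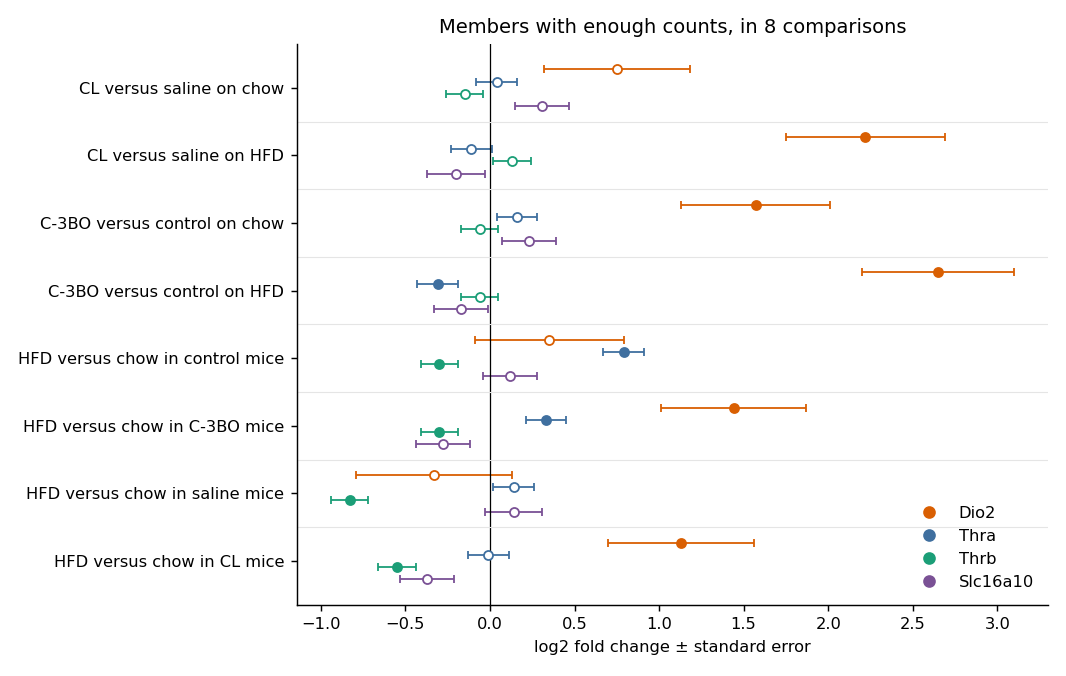
Log2 fold change ± standard error (horizontal axis) of the 4 tested genes in 8 comparisons, filled where the edgeR adjusted p was under 0.05. *Dio2* carries the rises of 1.57 to 2.65 under C-3BO and under CL on HFD, *Thrb* lies below 0 in each diet comparison, and *Slc16a10* is open throughout.

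The wider pathway was read from 8 lists with 43 genes, of which 41 were tested. CL changed 8 of them on chow (6 higher and 2 lower) and 11 on HFD (8 and 3), and C-3BO changed 14 on chow (12 and 2) and 17 on HFD (11 and 6). The shares of all tested genes that were higher and lower were 9.16% and 6.13% for CL on chow, 12.7% and 10.8% for CL on HFD, 15.8% and 15.9% for C-3BO on chow, and 19.3% and 15.5% for C-3BO on HFD.

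Among the other thyroid hormone transporters, *Slc3a2*, the heavy chain of amino acid transporters, rose with C-3BO on HFD (0.41, edgeR adjusted p = 0.0035) and had 0.03 with C-3BO on chow (edgeR adjusted p = 0.853). *Slc7a5* and *Slc7a8* were not called in these comparisons, and *Slco1c1* had too few counts.

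Among the 3 receptor partners, *Rxra*, a retinoid X receptor, rose in C-3BO mice on chow (0.50, edgeR adjusted p = 9.52e-05) and HFD (0.25, edgeR adjusted p = 0.038), and *Rxrb* on chow (0.36, edgeR adjusted p = 0.0114). Of the 5 corepressor genes, *Tbl1xr1*, a subunit of the NCoR complex, rose with C-3BO on chow (0.71) and HFD (0.52) and with CL on HFD (0.58). *Ncor1*, the corepressor itself, was lower by log2 fold changes of -0.34 with C-3BO and -0.33 with CL, both on HFD, and *Tbl1x* by -0.34 with C-3BO on HFD. Of the 7 coactivators none rose in the 4 comparisons. The members called were *Ncoa1*, at -0.28 and -0.43 with CL on chow and HFD and -0.26 with C-3BO on chow, and *Ncoa3*, at -0.42 with CL on chow and -0.51 with C-3BO on HFD. The median log2 fold change of the coactivators lay between -0.28 and 0.04, beside -0.03 to -0.01 for all tested genes.

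Among the 6 genes for selenoprotein synthesis and transport, *Sepsecs*, which makes the selenocysteine on its transfer RNA, was called in all 4 comparisons. It rose by 1.34 with C-3BO on chow (23.7 ± 3.05 against 9.33 ± 1.15 CPM, SD, n = 5, edgeR adjusted p = 1.62e-09), the only change of this list past the study's threshold, and by 0.86 on HFD (edgeR adjusted p = 3.69e-06). With CL it rose by 0.58 on chow (edgeR adjusted p = 0.00171) and 0.57 on HFD (edgeR adjusted p = 0.00337). *Sephs2*, which makes the selenium donor, rose by 0.76 and 0.70 with C-3BO on chow and HFD and by 0.56 with CL on HFD. *Pstk*, the kinase that acts before *Sepsecs*, was lower with C-3BO on chow (-0.44, edgeR adjusted p = 0.00485). With C-3BO on HFD *Pstk* was also lower (-0.31, edgeR adjusted p = 0.0489), a value given here after it was seen. *Sepp1*, the plasma selenium carrier, rose with C-3BO on HFD (0.37).

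Type 2 deiodinase is removed by ubiquitination and can be rescued by deubiquitinases. *Usp33*, a deubiquitinase of this enzyme, was called in all 4 comparisons, at 0.29 and 0.45 with CL on chow and HFD and at 0.35 and 0.64 with C-3BO. *Wsb1*, the recognition subunit of a ligase for it, had a log2 fold change of -0.48 with C-3BO on HFD (edgeR adjusted p = 0.0296). *Ube2g2*, a conjugating enzyme, had -0.37 with CL on HFD, and *March6*, another ligase, rose with C-3BO on chow (0.30). *Crym*, a cytosolic hormone binding protein, had 33 counts over all mice and was not tested.

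Of 10 genes known to respond to thyroid hormone, 4 rose with CL on chow, 3 with CL on HFD, 4 with C-3BO on chow, and 3 with C-3BO on HFD, where 1 was lower. That gene, named here after its value was seen, was *Hr*, a receptor corepressor (-0.66, edgeR adjusted p = 0.0455). *Ucp1* had the largest value in each, at 1.90, 1.74, 2.38 and 1.52 in this order. *Thrsp*, a lipogenic gene, rose by 0.95 and 0.79 with CL on chow and HFD and by 0.65 with C-3BO on chow. *Atp2a2*, the SERCA2 calcium pump, rose by 0.51 and 0.80 with CL on chow and HFD and by 0.69 with C-3BO on HFD. *Srebf1*, a regulator of lipogenesis, rose with C-3BO on chow (0.60, edgeR adjusted p = 0.0244), and *Me1*, malic enzyme, with C-3BO on HFD (0.93, edgeR adjusted p = 0.0167). The median log2 fold change of the list was 0.43, 0.44, 0.50 and 0.22, beside -0.01, -0.01, -0.03 and -0.02 for all tested genes. These genes also respond to other signals, and hormone was not measured in these files.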

How the data were processed

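Poly(A) RNA of BAT was sequenced by the authors on a HiSeq 1500 after TruSeq preparation. Reads were mapped to mm9 with STAR, and HOMER and iRNA-seq gave the deposited counts on RefSeq exons, which are not normalized. Versions, strandedness and filters are not given in the sources used here.

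Genes were kept with filterByExpr (minimum count 10) of edgeR 4.0.16 in R 4.3.3. The quasi-likelihood fit took all 40 libraries, a mean for each group and TMM factors, and p-values were adjusted over all tested genes by the method of Benjamini and Hochberg. SE is the log2 fold change divided by the square root of F. Log2 CPM used a prior count of 2, and CPM per kilobase the deposited exon length. Code was tested on simulated counts. The limit of 3 counts covers counting error only.

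The 6 genes and the lists were chosen with earlier results of these data known. The text names all 6 genes, the 3 changed genes with the largest log2 fold change of each list in each treatment comparison, and the 5 genes most correlated with each tested member. A listed gene that this rule names is not reported here. Alternatives were library totals alone, RLE factors, no filter, at least 10 counts in every library, DESeq2 1.42.0, the libraries of a comparison alone, replicate number as a block, HFD C-3BO replicates 4 and 5 left out, and each mouse left out in turn.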

Additional observations from a re-analysis of the deposited data

Results flagged for a closer look

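In 32 sets of 5 mice (4 genes in 8 groups), 5 mice stood far from their group on the CPM scale. For each, the gap to the nearest other mouse, divided by the range, exceeded 0.71. For normally distributed values chance gives this in about 1 set in 20. CPM need not be normal, and the 4 genes share the same mice, so this rate is only a rough guide. The measure was not taken on log2 CPM, where it can mark other mice. *Dio2* in chow saline replicate 1 was 85.4 CPM, with the next mouse at 19.4 CPM and a mean of 15.5 CPM over the other 4. *Dio2* in HFD control replicate 4 was 54.2 CPM, with the next at 27.4 CPM, and without it the diet difference in control mice fell from 0.35 to 0. *Thra* in chow control replicate 3 was 74.8 CPM, with the next at 120 CPM. This mouse had the highest sum of skeletal muscle markers (8240 CPM) and the lowest of endothelial markers (669 CPM) in its group. Replicate 4 of the same group had a similar muscle sum (7790 CPM) with *Thra* at 124 CPM. *Thra* in chow saline replicate 5 was 197 CPM, with the next at 142 CPM. *Thrb* in HFD control replicate 5 was 51.7 CPM, with the next at 66.2 CPM, and without this mouse the diet difference in control mice was -0.24 and no longer called by edgeR. Chow C-3BO replicate 1, low in *Dio2*, did not reach the limit on the CPM scale (0.664). What set these mice apart was not tested.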

How the results depend on the processing

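Across 17 or 18 alternatives for each comparison, the rises of *Dio2* with CL on HFD and with C-3BO on both diets, that of *Thra* on HFD in control mice and the lower *Thrb* on HFD in saline and CL mice were called in each. The exact permutation test of *Dio2* is not among these alternatives, and for C-3BO on chow it did not hold after adjustment (adjusted p = 0.0635, exact permutation). When library totals alone scaled the counts, the median log2 fold change of all genes moved to between -0.23 and -0.15 in treatment comparisons and between 0.15 and 0.21 in diet comparisons. The share of called genes that were higher moved from between 49.8% and 59.9% to between 20.2% and 30.1% with treatment, and from between 46.1% and 52.6% to between 71.2% and 84.8% with diet. Values near 0 then changed sign: *Thra* became -0.10 with CL on chow, -0.03 with C-3BO on chow and 0.16 with HFD in CL mice, and *Thrb* became -0.01 with CL on HFD. *Thra* with HFD in CL mice was also 0.01 with RLE factors, DESeq2 or the libraries of the comparison alone and 0.02 with at least 10 counts in every library. Without HFD C-3BO replicates 4 and 5, *Dio2* with HFD in C-3BO mice was 1.25 (edgeR adjusted p = 0.0703), and 1 member changed both there and with C-3BO on HFD. With HFD in control mice, 1 member changed with library totals alone or no filter. With HFD in CL mice, *Dio2* was 1.13 with no filter, 1.16 with DESeq2 and 1.19 with the replicate block, none called, so 1 member changed in each. Same-numbered mice did not deviate together in every pair (in C-3BO and control mice on chow, 3 of 5 pairs correlated over 0.1, the most of any comparison), so the replicate block pairs mice by number alone.

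Leaving out 1 mouse at a time gave *Dio2* 0.39 to 1.66 with CL on chow, 0 to 0.50 with HFD in control mice, -0.65 to 0.60 in saline mice and 0.97 to 1.49 in CL mice, and -0.08 to 1.18 for C-3BO minus CL effects on chow. It gave *Thra* -0.06 to 0.18 with CL on chow and -0.06 to 0.09 with HFD in CL mice, *Thrb* -0.12 to 0 with C-3BO on HFD, and *Slc16a10* -0.01 to 0.20 with HFD in control mice. Members changed ranged from 0 to 1 with CL on chow, 1 to 2 with C-3BO on HFD, 1 to 2 with HFD in control and CL mice, and 1 to 3 in C-3BO mice. The cause of these shifts was not tested. Depth limited *Dio1* and *Dio3* throughout and *Dio2* in HFD saline replicate 4, with 10 counts.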

Other observations

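The same lists were counted in the diet comparisons. Of the 10 genes known to respond to thyroid hormone, HFD brought 4 lower and 1 higher in control mice, 5 and 3 in C-3BO mice, 7 and 1 in saline mice and 5 and 1 in CL mice, with median log2 fold changes of -0.13, -0.61, -0.54 and -0.46. The shares of all tested genes that were lower and higher were 17.5% and 15.4% in control, 12.2% and 13.5% in C-3BO, 8.04% and 7.45% in saline, and 12.7% and 10.9% in CL mice. In injected mice these counts cannot be told apart from the libraries with liver transcripts.

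The genes closest to the receptors and to *Slc16a10* within groups are given as descriptions. After subtraction of group means, the genes closest to *Thra* over 40 libraries were *Gdpd5* (r = 0.73), *Ptpn9* (r = 0.723), *Cecr2* (r = 0.693), *Hivep1* (r = 0.692) and *Gcn1l1* (r = 0.675). Those closest to *Thrb* were *Arih1* (r = 0.696), *Taf1* (r = 0.694), *Usp32* (r = 0.692), *Synj2bp* (r = 0.685) and *Clcn3* (r = 0.676). *Slc16a10* was closest to *Slc25a51* (r = 0.702), *Tmem120a* (r = 0.698), *Slc35f6* (r = 0.691), *Polr2m* (r = 0.69) and *Ppargc1a*, the coactivator PGC1α (r = 0.69), while *Dio2* and *Ppargc1a* had r = 0.293. *Thra* and *Thrb* themselves had r = 0.01.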
